A study of Mus musculus with 2 samples.

Results

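The netrin guidance system was followed through 9 of the 32285 genes in the deposited gene list, matched by symbol: the secreted ligands Ntn1 and Ntn4, the receptors Dcc, Neo1, Unc5a, Unc5b, Unc5c and Unc5d, and the receptor Dscam. All 9 were detected. The data were 3′ single-cell RNA-seq of lobules III and IV of the mouse cerebellum, dissected on postnatal day 1, with 1 library for each genotype. The first library came from Cxcr4+/1013 mice, which carry 1 germline copy of a mutant Cxcr4, the receptor of the chemokine CXCL12, whose protein lacks part of its cytoplasmic tail. The other came from Cxcr4+/+ littermates, and the labels give the strain of both as B6.129S2-Cxcr4tm1.1Bala. The extraction text writes the mutant as Cxcr4+/-, and the genotype label is used here. No source used here gives the number of animals per library. Each library held cells with female and cells with male transcripts.

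Netrins are laminin-related secreted proteins that steer growing axons and migrating neurons. Netrin-1 attracts through DCC, repels through UNC5 receptors alone or together with DCC, and in their absence DCC and UNC5 proteins can signal cell death, for which they are called dependence receptors. Neogenin, the product of Neo1, is the close relative of DCC and also binds repulsive guidance molecules, DSCAM is a cell adhesion molecule that can act as a netrin receptor, and netrin-4 is a more distant netrin that binds laminins. In the developing cerebellum and hindbrain, mice without Unc5c are known for granule and Purkinje cells that stray beyond the cerebellar boundary.

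In GRCm38 coordinates (GENCODE vM21), Ntn1 lies at chr11:68209364-68400823 on the minus strand and Ntn4 at chr10:93640681-93747207 on the plus strand. Neo1 lies at chr9:58874687-59036441 (minus). The UNC5 genes are at chr13:54949411-55006018 (Unc5a, plus), chr10:60762593-60831581 (Unc5b, minus), chr3:141465216-141834924 (Unc5c, plus) and chr8:28646717-29219636 (Unc5d, minus). Dscam lies at chr16:96590840-97170752 (minus). Neo1 overlaps Gm47271 on the opposite strand and Unc5c overlaps Gm15688 and Gm15689, so UMIs there depend on how strand was counted.

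RefSeq promoter windows (GRCm38.p6) were found for 6 of the 9 genes, and 3 of them lie wholly outside the annotated gene: those of Neo1, whose ratio between the libraries was above 1 in each of 12 cell types, and of Unc5a and Unc5b, which are set beside it as 2 relatives with differing patterns over cell types. The 250 bases before each start are printed 5′ to 3′ on the gene's strand, for Neo1 at chr9:59036442-59036691 (minus), for Unc5a at chr13:54949161-54949410 (plus) and for Unc5b at chr10:60831582-60831831 (minus). Capitals mark the GC box GGGCGG, which Sp-family factors can bind, read on either strand.
Neo1: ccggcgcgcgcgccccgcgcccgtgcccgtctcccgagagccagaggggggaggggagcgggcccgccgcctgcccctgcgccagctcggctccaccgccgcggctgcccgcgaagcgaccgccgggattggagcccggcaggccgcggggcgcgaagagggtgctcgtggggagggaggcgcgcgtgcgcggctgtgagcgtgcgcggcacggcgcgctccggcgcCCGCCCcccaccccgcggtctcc
Unc5a: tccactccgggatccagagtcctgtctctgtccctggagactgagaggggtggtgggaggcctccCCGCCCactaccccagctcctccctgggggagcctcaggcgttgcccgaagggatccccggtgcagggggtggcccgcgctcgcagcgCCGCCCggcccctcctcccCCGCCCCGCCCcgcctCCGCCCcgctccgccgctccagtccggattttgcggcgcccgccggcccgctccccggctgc
Unc5b: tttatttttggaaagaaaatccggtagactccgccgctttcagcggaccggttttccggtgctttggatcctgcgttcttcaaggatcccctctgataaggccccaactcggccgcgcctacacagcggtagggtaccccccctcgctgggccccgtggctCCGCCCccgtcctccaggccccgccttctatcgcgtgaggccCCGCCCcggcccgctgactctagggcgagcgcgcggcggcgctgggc
The Neo1 window held 1 GC box in 83.2% G and C, the Unc5a window 5 in 76.8%, with 1 pair overlapping by a base, and the Unc5b window 2 in 66.8%. The Ntn4 window held 4, and those of Unc5c and Dscam held 0. Of all 32851 windows of this length, 32.7% held at least 1. Neither the E-box CAGCTG (13.0% of all windows) nor the TATA box TATAAA (12.4%) was found in any of the 6, on either strand, and no site or factor is read from these letters.

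Of the deposited barcodes, 8194 in the Cxcr4+/1013 library and 8353 in the Cxcr4+/+ library had at least 500 genes and at most 10% mitochondrial UMIs (unique molecular identifiers, each counting 1 captured transcript). They held 126145234 UMIs in Cxcr4+/1013 and 114764187 UMIs in Cxcr4+/+, with a median per barcode of 13557.5 UMIs in Cxcr4+/1013 and 12101 UMIs in Cxcr4+/+, and 18 barcode sequences occurred in both libraries. Cxcr4 was at 24.1 CPM (the gene's UMIs per 1000000 UMIs of the library or type; 95% interval 23.2 to 25.0) in the Cxcr4+/1013 library and 27.1 CPM (26.2 to 28.1) in the Cxcr4+/+ library. A 3′ count does not read the truncation, so this checks nothing about the labels. Barcodes were sorted into cell types by counting detected markers, none of them a netrin gene. A type was given to 78.9% of Cxcr4+/1013 and 68.9% of Cxcr4+/+ barcodes, some of which passed more than 1 gate. A type name stands for barcodes with that marker pattern (Purkinje-like and so on), which is a range of marker counts and not a proven type: 453 of 1319 Cxcr4+/1013 and 355 of 965 Cxcr4+/+ granule neurons were at the gate's minimum. Of other types' markers, Zic1, Lhx1, Rora and Fabp7 were among those with a median above 0 in granule neurons, and no interneuron marker was. None of the granule neuron gate's own markers stood among its leading genes by fold, so that name rests on the gate alone. The unipolar brush cell gate, led by Grp, Lmx1a and Eomes, had 216 of 499 Cxcr4+/1013 and 172 of 330 Cxcr4+/+ barcodes at its minimum, and 6 of the 9 granule neuron markers had a median above 0 in it. The 12 types with at least 100 barcodes in each library are called large types here. Cells passing both the granule progenitor and the granule neuron gate form 1 of them, and genes of mitosis lead it. They include 310 Cxcr4+/1013 and 290 Cxcr4+/+ glutamatergic neurons led by Tfap2d and Lhx9, and 129 Cxcr4+/1013 and 140 Cxcr4+/+ GABAergic neurons led by Gata3 and Six3, genes of midbrain neurons, although the dissection was cerebellar.

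With 1 library per genotype no difference can be tested. Intervals below are exact 95% intervals for counting error alone, a ratio is Cxcr4+/1013 over Cxcr4+/+, and a gene with at least 50 UMIs over both libraries is called higher or lower at 1.5-fold. In pooled levels, fewer cells of a type and less RNA per cell cannot be told apart.

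Over all kept barcodes, every one of the 9 genes had a ratio above 1, with a median log2 ratio of 0.33 against -0.01 for all 19414 genes counted, of which 48.5% were above 1. Ntn4 was the only one called higher (1 of 9, where 2.19% of all genes were called higher and 6.92% lower), at 38.3 CPM in Cxcr4+/1013 and 24.2 CPM in Cxcr4+/+, a ratio of 1.58 (1.51 to 1.66). It was 1.43 among female and 1.74 among male barcodes. Dcc stood at 2547 CPM in Cxcr4+/1013 and 1905 CPM in Cxcr4+/+ (ratio 1.34, 1.33 to 1.34), Unc5c at 2180 CPM in Cxcr4+/1013 and 1636 CPM in Cxcr4+/+ (1.33, 1.32 to 1.34), Ntn1 at 62.4 CPM in Cxcr4+/1013 and 48.8 CPM in Cxcr4+/+ (1.28, 1.24 to 1.32) and Neo1 at 325 CPM in Cxcr4+/1013 and 259 CPM in Cxcr4+/+ (1.26, 1.24 to 1.28). The intervals of Unc5b (11.2 CPM in Cxcr4+/1013 and 9.98 CPM in Cxcr4+/+, ratio 1.12) and Unc5d (213 CPM in Cxcr4+/1013 and 202 CPM in Cxcr4+/+, 1.06) also lay above 1. Those of Unc5a (5.60 CPM in Cxcr4+/1013 and 5.42 CPM in Cxcr4+/+, 1.03) and Dscam (209 CPM in Cxcr4+/1013 and 206 CPM in Cxcr4+/+, 1.01) included 1.

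The libraries differed in composition, and the netrin ratios changed when the types were given the same weights in both. The part of composition in the ratios was not tested. Granule neurons made up 16.1% of Cxcr4+/1013 and 11.6% of Cxcr4+/+ barcodes, GABAergic interneurons 18.5% in Cxcr4+/1013 and 13.4% in Cxcr4+/+, and astroglia 5.61% in Cxcr4+/1013 and 9.64% in Cxcr4+/+. The 12 large types were then weighted by their shares of Cxcr4+/+ UMIs, not of barcodes, which is called Cxcr4+/+ proportions here. This setting was added after the values were seen. Ntn4 had a ratio of 1.34 in place of 1.54 for the same cells pooled. Dcc had 1.15 in place of 1.29, Unc5c 1.17 in place of 1.33 and Unc5b 1.10 in place of 1.28. Neo1 moved less, to 1.2 in place of 1.26, and Unc5a, Unc5d and Dscam came to 1.03, 1.02 and 1.03. No member was then past 1.5. Barcodes without a type were left out of this weighting. They held 14.0% (Unc5c) to 18.8% (Dcc) of a member's UMIs in Cxcr4+/1013. In Cxcr4+/+ they held 21.4% (Ntn4) to 30.5% (Unc5b).

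**Figure D1:**
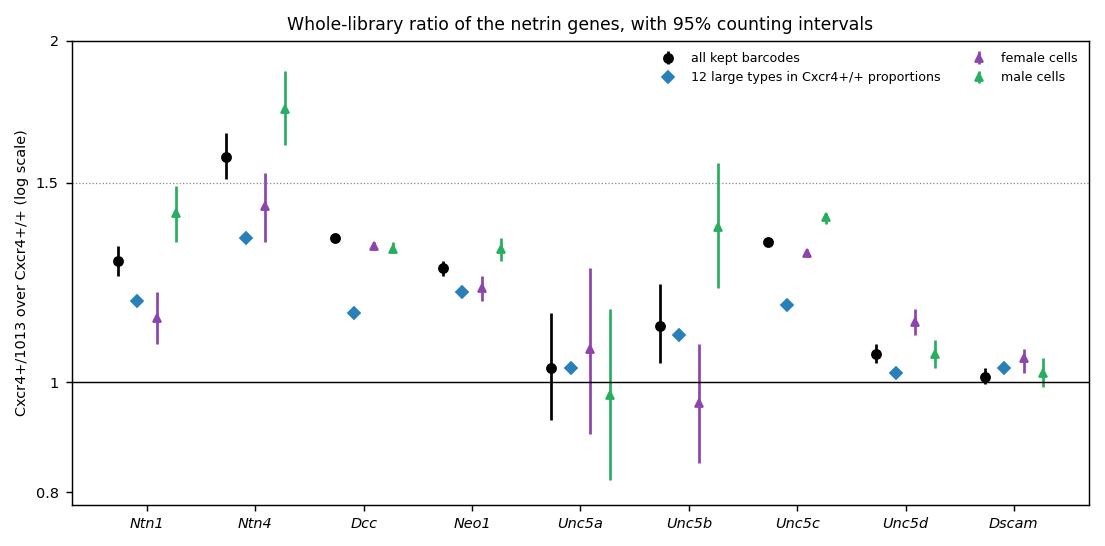
Ratio of each netrin gene, Cxcr4+/1013 over Cxcr4+/+, on a log axis. Black circles are all kept barcodes, blue diamonds the 12 large types in Cxcr4+/+ proportions, and triangles female (purple) or male (green) barcodes; bars are 95% counting intervals and the dotted line is 1.5. Ntn4 is the only gene past 1.5 over all barcodes, at 1.58, and is at 1.34 in Cxcr4+/+ proportions.

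Within the 12 large types, 85 pairs of a netrin gene and a type had 50 or more UMIs. The ratio was above 1 in 66 of them, the interval lay above 1 in 42 and below 1 in 7. By type, the share of all genes above 1 ran from 50.8% in ependymal cells to 61.1% in cells with both granule gates. No share of all genes stands beside the interval counts, which also depend on how many UMIs a gene has. Only 5 pairs were called higher and 1 lower, where 3.63% of all 133315 gene and type pairs were called higher and 2.25% lower. Most of the 85 ratios were thus above 1 and under 1.5-fold, and they were not tested against the shares of all genes. Of 732 ratios recomputed within types under other filters, gates, clusters, scalings or in 1 sex, 74 lay on the other side of 1, and for 53 of these the interval as reported included 1. The median log2 ratio of the genes was 0.23 in granule cell progenitors (all genes 0.05), 0.28 in cells passing both granule gates (0.07), 0.20 in granule neurons (0.04) and 0.19 in interneurons (0.01), against -0.01 in Purkinje cells (0.01) and 0.01 in ependymal cells (0.00).

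**Figure D2:**
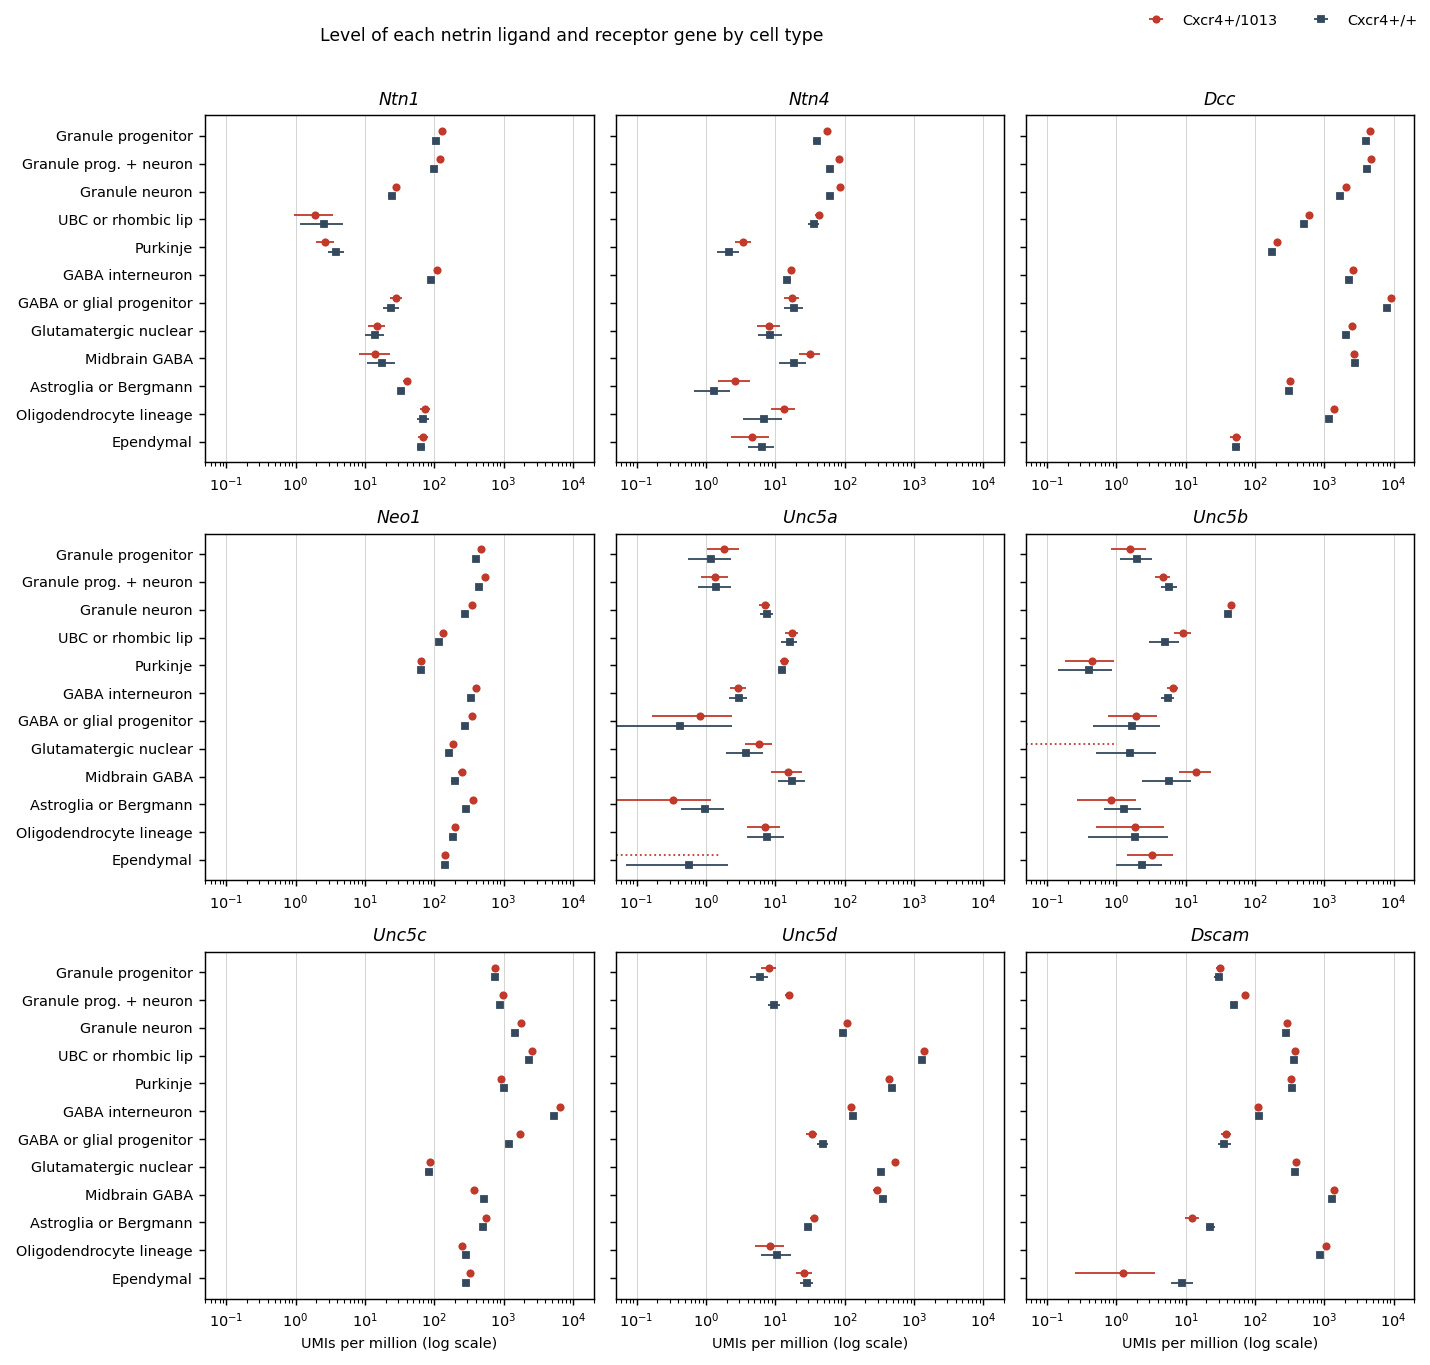
Level of each netrin gene in CPM (log axis) in the 12 large types, Cxcr4+/1013 as red circles and Cxcr4+/+ as dark squares, with exact 95% Poisson intervals and dotted lines up to the upper limit where no UMI was counted. The order of types is nearly the same in both libraries: Dcc runs from 9263 CPM in Cxcr4+/1013 and 7932 CPM in Cxcr4+/+ in GABAergic or glial progenitors to 52.8 CPM in Cxcr4+/1013 and 53.5 CPM in Cxcr4+/+ in ependymal cells.

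As averages of the large types, Ntn1, the secreted cue itself, was highest in granule cell progenitors and cells with both granule gates, not in granule neurons. It was at 130 CPM in Cxcr4+/1013 and 106 CPM in Cxcr4+/+ granule cell progenitors, at 121 CPM in Cxcr4+/1013 and 99.5 CPM in Cxcr4+/+ in cells passing both granule gates, and at 27.9 CPM in Cxcr4+/1013 and 24.2 CPM in Cxcr4+/+ in granule neurons. GABAergic interneurons carried nearly as much as the progenitors, 108 CPM in Cxcr4+/1013 and 90.7 CPM in Cxcr4+/+, and held 30.1% of all Ntn1 UMIs in Cxcr4+/1013 and 24.7% in Cxcr4+/+. Purkinje cells (2.70 CPM in Cxcr4+/1013 and 3.81 CPM in Cxcr4+/+) and unipolar brush cells, excitatory interneurons of the rhombic lip, were at the bottom. In each library the intervals of the 2 highest types overlapped, so their order is not resolved. In Cxcr4+/+ the interneuron interval also overlapped that of cells with both gates. Interneurons with a UMI of Slc6a5, a split described below, were above the progenitors, at 172 CPM in Cxcr4+/1013 and 147 CPM in Cxcr4+/+. After thinning every barcode to 2000 UMIs, Ntn1 was seen in 18.7% of Cxcr4+/1013 and 15.8% of Cxcr4+/+ interneurons and in 0.455% of Cxcr4+/1013 and 0.00% of Cxcr4+/+ Purkinje cells, which serve as the background share (median depths before thinning 13151.5 UMIs in Cxcr4+/1013 and 12526 UMIs in Cxcr4+/+ interneurons, 36528.5 UMIs in Cxcr4+/1013 and 35705 UMIs in Cxcr4+/+ Purkinje cells).

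The Ntn1 ratio lay between 1.07 and 1.23 in 9 of the 10 types that could be counted, with 4 intervals above 1, in granule cell progenitors (1.23, 1.12 to 1.35), both granule gates (1.21), interneurons (1.19) and astroglia (1.21). Among female interneurons alone it was 0.953. Purkinje cells were the exception, at 0.707 with an interval that included 1 (0.463 to 1.07). None was past 1.5 as gated, but in Leiden clusters granule neurons were at 1.55 and ependymal cells at 1.6, and female oligodendrocyte-lineage barcodes were at 1.66.

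Ntn4, the laminin-binding netrin, followed a different course in the granule cell lineage. It stayed high in granule neurons, at 85.7 CPM in Cxcr4+/1013 and 61.5 CPM in Cxcr4+/+, where Ntn1 was low. Cells with both granule gates had 82.6 CPM in Cxcr4+/1013 and 60.9 CPM in Cxcr4+/+ and progenitors 55.9 CPM in Cxcr4+/1013 and 40.0 CPM in Cxcr4+/+. The ratio was 1.39 (1.27 to 1.52) in granule neurons, 1.36 (1.23 to 1.5) in cells with both gates and 1.40 (1.21 to 1.62) in progenitors, the 3 types that together hold most of its UMIs. All 3 intervals lay clear of 1, but in female cells with both gates the ratio was 0.980. The 2 Ntn4 pairs past 1.5 were at low counts: Purkinje cells with 54 UMIs in Cxcr4+/1013 and 32 UMIs in Cxcr4+/+ (3.47 CPM in Cxcr4+/1013 and 2.14 CPM in Cxcr4+/+, ratio 1.62, 1.03 to 2.59, where 2.43% of all genes were called higher) and midbrain GABAergic neurons with 36 UMIs in Cxcr4+/1013 and 22 UMIs in Cxcr4+/+ (1.74, 0.997 to 3.11, where 4.79% were). With probable doublets removed the Purkinje ratio was 1.23, and in Leiden clusters the midbrain ratio was 1.25.

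Dcc, the attractive netrin receptor and the longest of the 9 genes (1097 kb on chromosome 18), was highest in GABAergic or glial progenitors, at 9263 CPM in Cxcr4+/1013 and 7932 CPM in Cxcr4+/+. Cells with both granule gates (4750 CPM in Cxcr4+/1013 and 4179 CPM in Cxcr4+/+) and granule cell progenitors (4579 CPM in Cxcr4+/1013 and 3997 CPM in Cxcr4+/+) came next, ahead of midbrain GABAergic neurons and interneurons (2616 CPM in Cxcr4+/1013 and 2286 CPM in Cxcr4+/+). Purkinje cells had 207 CPM in Cxcr4+/1013 and 174 CPM in Cxcr4+/+. After thinning to 2000 UMIs, 97.9% of Cxcr4+/1013 and 98.0% of Cxcr4+/+ granule cell progenitors held a Dcc UMI, and 53.5% of Cxcr4+/1013 and 52.0% of Cxcr4+/+ granule neurons, against 4.0% of Cxcr4+/1013 and 4.86% of Cxcr4+/+ fibroblasts (median 12173 UMIs in Cxcr4+/1013 and 14917 UMIs in Cxcr4+/+ before thinning, against 16591 UMIs in Cxcr4+/1013 and 16670.5 UMIs in Cxcr4+/+ progenitors).

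As gated, the Dcc ratio ran from 0.971 to 1.21 over the 12 large types, above 1 in 10 of them and with the interval above 1 in 9. Granule neurons had the largest, 2048 CPM in Cxcr4+/1013 and 1691 CPM in Cxcr4+/+ (1.21, 1.19 to 1.23), and midbrain GABAergic neurons the smallest (0.971, 0.924 to 1.02). GABAergic or glial progenitors were at 1.17 (1.15 to 1.19). By sex, granule neurons were at 1.05 among female and 1.39 among male barcodes. GABAergic or glial progenitors were at 1.27 among female and 1.01 among male barcodes. The glial and ependymal ratios also depended on how the cells were chosen. Ependymal cells, at 0.986 as gated, were at 3.67 in Leiden clusters, astroglia, at 1.05 as gated, were at 1.7 under a stricter gate, and the oligodendrocyte lineage, at 1.18, was at 1.69 among female barcodes. The share of cells with Dcc was near its ceiling in progenitors of both libraries, so the level there differs among cells that nearly all carry the transcript.

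Neo1, the neogenin gene, had, as gated, a ratio above 1 in all 12 large types, from 1.01 in Purkinje and ependymal cells to 1.29 in granule neurons, with 9 intervals above 1. Granule neurons were at 356 CPM in Cxcr4+/1013 and 276 CPM in Cxcr4+/+ (ratio 1.29, 1.23 to 1.34), and cells with both granule gates, the highest type, at 542 CPM in Cxcr4+/1013 and 444 CPM in Cxcr4+/+ (1.22, 1.18 to 1.27). GABAergic or glial progenitors had 349 CPM in Cxcr4+/1013 and 276 CPM in Cxcr4+/+ (1.27) and astroglia 360 CPM in Cxcr4+/1013 and 287 CPM in Cxcr4+/+ (1.25). Purkinje cells were lowest in both libraries, at 64.4 CPM in Cxcr4+/1013 and 63.5 CPM in Cxcr4+/+, and their ratio stayed above 1 in 4 of 9 alternatives. It was 0.593 at 1000 genes or more and at most 5% mitochondrial UMIs, a filter that kept 45 of 440 Cxcr4+/1013 and 45 of 434 Cxcr4+/+ Purkinje cells. At equal depth of 2000 UMIs, Neo1 was seen in 66.1% (62.5 to 69.6) of Cxcr4+/1013 and 50.8% (46.3 to 55.3) of Cxcr4+/+ cells with both granule gates, in 62.7% of Cxcr4+/1013 and 51.2% of Cxcr4+/+ granule cell progenitors, and in 46.7% of Cxcr4+/1013 and 39.8% of Cxcr4+/+ granule neurons. The background, in microglia or macrophages, was 2.33% in Cxcr4+/1013 and 2.38% in Cxcr4+/+ (median 8108.5 UMIs in Cxcr4+/1013 and 9212 UMIs in Cxcr4+/+). No Neo1 ratio reached 1.5 as gated, and midbrain GABAergic neurons were at 1.55 under a stricter gate. Among male glutamatergic neurons, 14 Cxcr4+/1013 and 76 Cxcr4+/+ barcodes, it was 0.687. Gm47271, on the strand opposite to Neo1, had 6176 UMIs in Cxcr4+/1013 and 5416 UMIs in Cxcr4+/+, a ratio of 1.04 that is below that of Neo1.

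**Figure D3:**
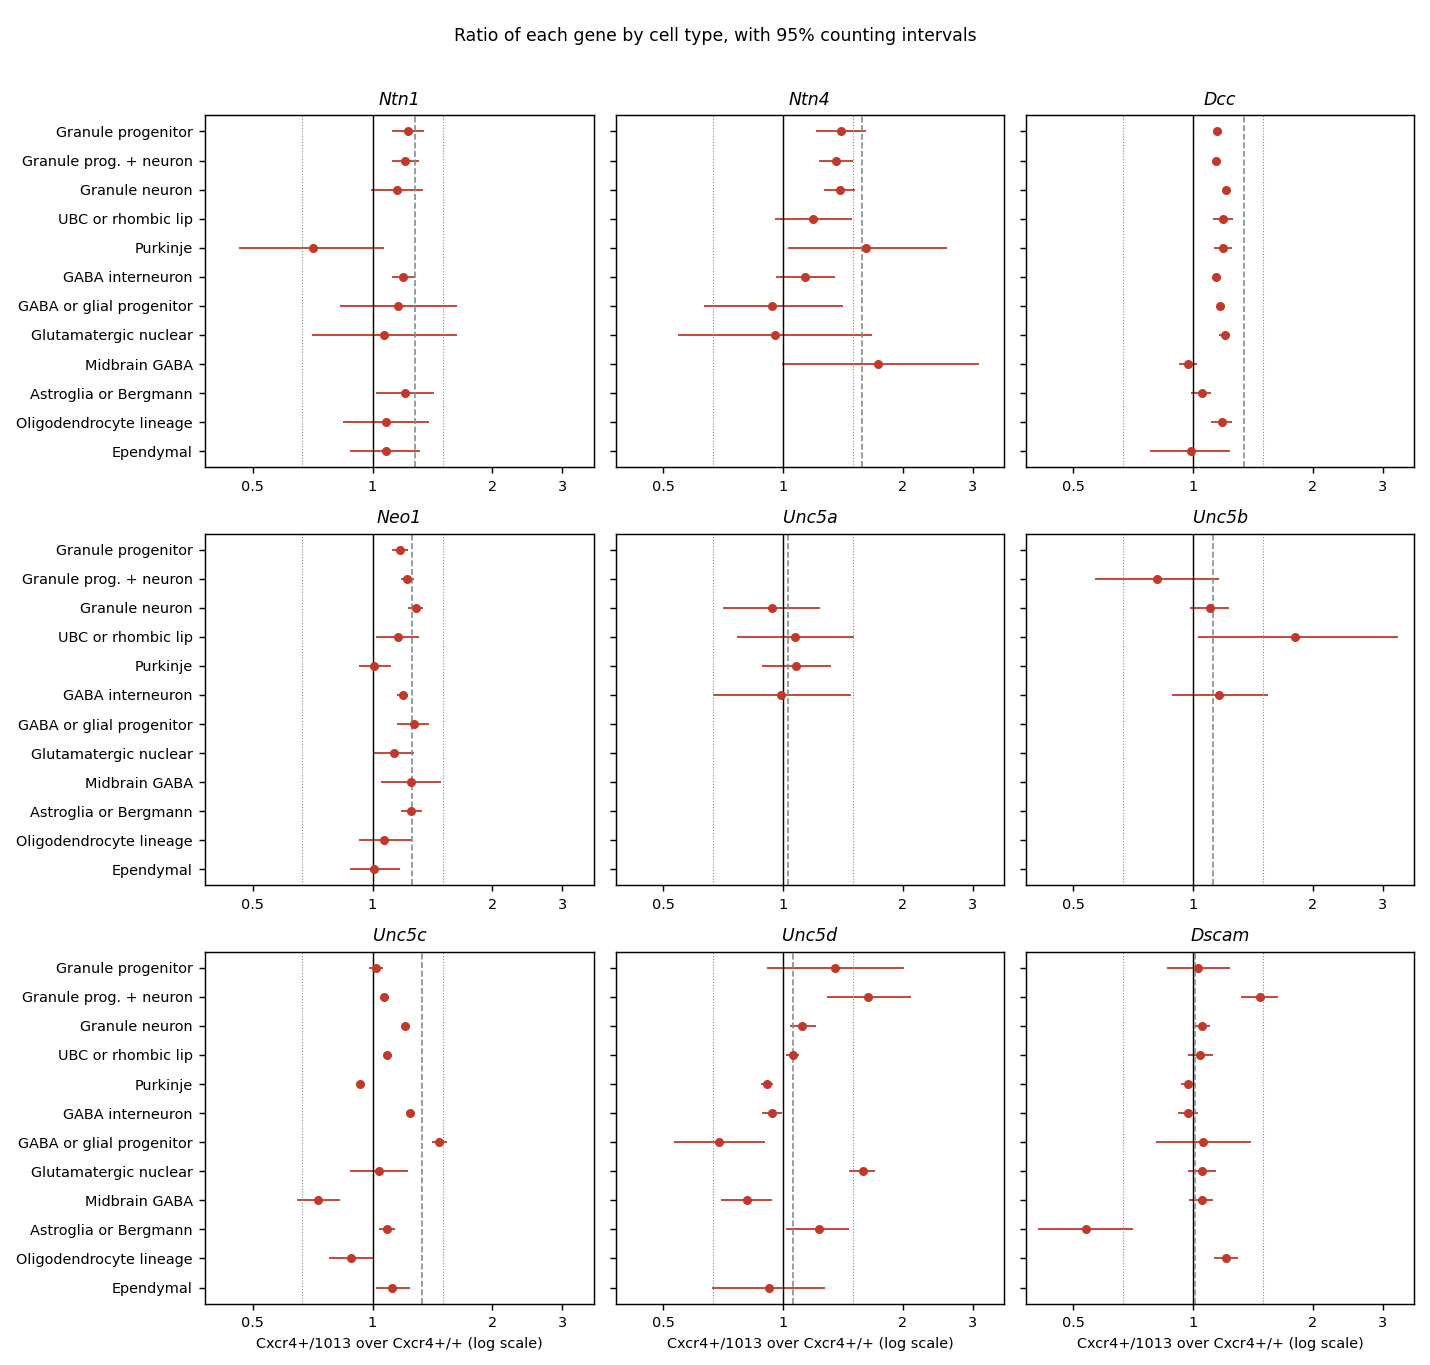
Ratio of Cxcr4+/1013 over Cxcr4+/+ (log axis) for each netrin gene in each large type with at least 50 UMIs, with exact 95% intervals; the solid line is 1, the dashed line the whole-library ratio and the dotted lines 1.5-fold either way. With the gates as reported Neo1 is above 1 in 12 of 12 types and Dcc in 10 of 12, while Unc5d lies on both sides; in other settings Neo1 falls to 0.593 in Purkinje cells and Dcc runs between 0.897 and 3.67 in ependymal cells.

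The 4 UNC5 receptors, which carry an intracellular death domain and mediate repulsion, had overlapping ranges over the types. Unc5b, Unc5c and Unc5d were each highest in a different large type, and the highest type of Unc5a was not resolved. Unc5c was highest in GABAergic interneurons, at 6562 CPM in Cxcr4+/1013 and 5282 CPM in Cxcr4+/+, and those cells held 52.2% of its UMIs in Cxcr4+/1013 and 42.8% in Cxcr4+/+. It was also at 2572 CPM in Cxcr4+/1013 and 2364 CPM in Cxcr4+/+ unipolar brush cells. Unc5d was highest in unipolar brush cells (1394 CPM in Cxcr4+/1013 and 1318 CPM in Cxcr4+/+). In Cxcr4+/1013, glutamatergic nuclear or midbrain neurons (540 CPM) and Purkinje cells (438 CPM) came next. In Cxcr4+/+, Purkinje cells (480 CPM) came next, then midbrain GABAergic (356 CPM) and glutamatergic neurons (340 CPM), whose intervals overlapped. Unc5b was highest in granule neurons (45.7 CPM in Cxcr4+/1013 and 41.6 CPM in Cxcr4+/+), which held 56.5% of its UMIs in Cxcr4+/1013 and 43.6% in Cxcr4+/+, and among whose leading genes it stood. Unc5a, sparse throughout, had most UMIs in Purkinje cells (212 UMIs in Cxcr4+/1013 and 188 UMIs in Cxcr4+/+, 13.6 CPM in Cxcr4+/1013 and 12.6 CPM in Cxcr4+/+). Unipolar brush cells were at 17.2 CPM in Cxcr4+/1013 and 16.1 CPM in Cxcr4+/+, and midbrain GABAergic neurons at 15.1 CPM in Cxcr4+/1013 and 17.5 CPM in Cxcr4+/+ on 17 UMIs in Cxcr4+/1013 and 21 UMIs in Cxcr4+/+, with overlapping intervals. Outside the large types, Unc5b was at 133 CPM in 18 Cxcr4+/1013 mural cells (17 UMIs) and 140 CPM in 37 Cxcr4+/+ mural cells (47 UMIs), the pericytes and smooth muscle of vessels (ratio 0.951, 0.512 to 1.69), and UNC5B is well known as a receptor of blood vessels.

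For Unc5c the interneuron ratio was 1.24 (1.23 to 1.25) and the granule neuron ratio 1.21 (1774 CPM in Cxcr4+/1013 and 1468 CPM in Cxcr4+/+, 1.19 to 1.23). GABAergic or glial progenitors had 1737 CPM in Cxcr4+/1013 and 1181 CPM in Cxcr4+/+, its highest ratio among the large types (1.47, 1.41 to 1.54). This size held in neither sex. Female cells of this type, 92 in Cxcr4+/1013 and 77 in Cxcr4+/+, gave 2.0 (1.87 to 2.14). Male cells, 109 in Cxcr4+/1013 and 57 in Cxcr4+/+, gave only 1.13 (1.04 to 1.22). Granule cell progenitors were at 762 CPM in Cxcr4+/1013 and 748 CPM in Cxcr4+/+ (1.02, interval including 1), and cells with both gates at 967 CPM in Cxcr4+/1013 and 901 CPM in Cxcr4+/+ (1.07, 1.05 to 1.10). Purkinje cells were lower, 928 CPM in Cxcr4+/1013 and 999 CPM in Cxcr4+/+ (0.930, 0.908 to 0.951). Midbrain GABAergic neurons were also lower (380 CPM in Cxcr4+/1013 and 520 CPM in Cxcr4+/+, 0.731), but 57.7% of Cxcr4+/1013 and 26.8% of Cxcr4+/+ UMIs there came from 1 barcode each. Without the barcode with most Unc5c the ratio there was 0.431, and with probable doublets removed it was 1.28. Among male barcodes, only 13 in Cxcr4+/1013 and 51 in Cxcr4+/+, it was 0.0849. Glutamatergic neurons, at 1.04 as gated, were at 0.62 in Leiden clusters and 2.09 among male barcodes (14 in Cxcr4+/1013 and 76 in Cxcr4+/+). Among 56 Cxcr4+/1013 and 45 Cxcr4+/+ microglia or macrophages the ratio was 5.01 on 65 UMIs in Cxcr4+/1013 and 11 UMIs in Cxcr4+/+, and 1 barcode gave 60.0% of them in Cxcr4+/1013 and 45.5% in Cxcr4+/+. The antisense genes Gm15688 (1241 UMIs in Cxcr4+/1013 and 852 UMIs in Cxcr4+/+, ratio 1.33) and Gm15689 (565 UMIs in Cxcr4+/1013 and 359 UMIs in Cxcr4+/+, 1.43) had whole-library ratios near or above that of Unc5c.

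Unc5d was the member without a common direction, with 5 intervals above 1 and 4 below among 11 types. In glutamatergic nuclear or midbrain neurons it was at 540 CPM in Cxcr4+/1013 and 340 CPM in Cxcr4+/+ (1.59, 1.47 to 1.71). There 4.80% of genes were called higher. This was the best-counted call of the 9 genes, on 1923 UMIs in Cxcr4+/1013 and 1076 UMIs in Cxcr4+/+. Of the 211 genes of 500 kb or more counted there, Unc5d (573 kb) among them, 88.6% had a lower ratio, and the median was 1.132. Unc5d was also called higher in cells with both granule gates, at 15.7 CPM in Cxcr4+/1013 and 9.58 CPM in Cxcr4+/+ (1.64, 1.29 to 2.10). In those cells 3.81% of genes were called higher, and 1 barcode gave 20.7% of the Unc5d UMIs in Cxcr4+/1013 and 18.8% in Cxcr4+/+. Under a stricter gate that ratio was 1.04, with probable doublets removed 1.23, and among male cells 0.534. In Leiden clusters the glutamatergic ratio was 1.44. Unc5d was lower in Purkinje cells (438 CPM in Cxcr4+/1013 and 480 CPM in Cxcr4+/+, 0.912, 0.882 to 0.943), interneurons (0.941, 0.887 to 0.997), midbrain GABAergic neurons (0.812) and GABAergic or glial progenitors (33.6 CPM in Cxcr4+/1013 and 48.5 CPM in Cxcr4+/+, 0.692, 0.533 to 0.901). With probable doublets removed the last was 1.13, and female interneurons were at 1.23. Under a stricter gate midbrain GABAergic neurons were at 1.06. In unipolar brush cells, where its level was highest, the ratio was 1.06 (1.02 to 1.10).

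Unc5b was called higher in unipolar brush cells, on 52 UMIs in Cxcr4+/1013 and 18 UMIs in Cxcr4+/+ (9.14 CPM in Cxcr4+/1013 and 5.08 CPM in Cxcr4+/+, 1.80, 1.03 to 3.27, where 3.09% of genes were called higher). Granule neuron markers were present in that gate, and their part in the ratio was not tested. In granule neurons, the large type where its level was highest, the ratio was 1.10 and the interval included 1 (0.981 to 1.23). Unc5a could be counted in 4 types, with ratios from 0.938 to 1.08 and every interval including 1.

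Dscam, the immunoglobulin-superfamily netrin receptor, was highest in midbrain GABAergic neurons (1365 CPM in Cxcr4+/1013 and 1305 CPM in Cxcr4+/+) and in the oligodendrocyte lineage (1065 CPM in Cxcr4+/1013 and 879 CPM in Cxcr4+/+, 1.21, 1.13 to 1.30). It gave the only call to the lower side: astroglia or Bergmann glia, its second-lowest large type, had 12.3 CPM in Cxcr4+/1013 and 22.9 CPM in Cxcr4+/+ (0.539, 0.408 to 0.706, where 2.63% of genes were called lower), on 74 UMIs in Cxcr4+/1013 and 213 UMIs in Cxcr4+/+. Over the alternatives tried it lay between 0.420 and 0.667. In the other direction, cells with both granule gates had 73.1 CPM in Cxcr4+/1013 and 49.8 CPM in Cxcr4+/+ (1.47, 1.32 to 1.63). In Purkinje cells, interneurons, unipolar brush cells and glutamatergic neurons the interval included 1, with ratios of 0.970, 0.972, 1.04 and 1.05. Purkinje cells were at 0.668 under the filter that kept 45 barcodes of each library, and male glutamatergic neurons, 14 Cxcr4+/1013 and 76 Cxcr4+/+ barcodes, were at 0.55 (0.393 to 0.754).

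The levels within a gate were uneven, which was examined by dividing gates on 1 marker, a split chosen after values were seen. Nhlh1, a transcription factor of young granule neurons, had a UMI in 42.6% of Cxcr4+/1013 and 39.2% of Cxcr4+/+ granule neurons. Barcodes with it had 3514 CPM of Dcc in Cxcr4+/1013 and 2938 CPM in Cxcr4+/+ (ratio 1.2, 1.17 to 1.22), and those without it 899 CPM in Cxcr4+/1013 and 866 CPM in Cxcr4+/+ (1.04, 1.01 to 1.07). For Ntn4 the ratio was 1.52 (1.34 to 1.73) with Nhlh1 and 1.21 (1.06 to 1.38) without, and for Unc5c 1.29 (1.25 to 1.33) and 1.15 (1.12 to 1.18). Neo1 was above 1 on both sides, at 1.37 (1.28 to 1.46) and 1.24 (1.18 to 1.31). Unc5b and Unc5d went the other way in level, with more in barcodes without Nhlh1. A split on Cntn2, another marker of the gate, gave a different pattern. Unc5b was higher with Cntn2 than without, 1.45 times in Cxcr4+/1013 and 1.35 times in Cxcr4+/+. For Dcc this quotient was 1.54 in Cxcr4+/1013 and 1.02 in Cxcr4+/+, and for Unc5d 0.661 in Cxcr4+/1013 and 1.0 in Cxcr4+/+.

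In the interneuron gate, Slc6a5, the glycine transporter of glycinergic neurons, had a UMI in 57.7% of Cxcr4+/1013 and 53.8% of Cxcr4+/+ barcodes. Those barcodes had 172 CPM of Ntn1 in Cxcr4+/1013 and 147 CPM in Cxcr4+/+, against 41.0 CPM in Cxcr4+/1013 and 38.4 CPM in Cxcr4+/+ without Slc6a5. Unc5c was at 7934 CPM in Cxcr4+/1013 and 6217 CPM in Cxcr4+/+ with it (ratio 1.28, 1.26 to 1.29) and at 5103 CPM in Cxcr4+/1013 and 4416 CPM in Cxcr4+/+ without (1.16, 1.14 to 1.17). The median depth was 11955 UMIs in Cxcr4+/1013 and 11097 UMIs in Cxcr4+/+ in barcodes with Slc6a5 and 16678 UMIs in Cxcr4+/1013 and 15977.5 UMIs in Cxcr4+/+ in those without. Unc5d was the opposite, 40.7 CPM in Cxcr4+/1013 and 42.1 CPM in Cxcr4+/+ with Slc6a5 against 210 CPM in Cxcr4+/1013 and 213 CPM in Cxcr4+/+ without, and it was higher in barcodes with the somatostatin gene Sst (215 CPM in Cxcr4+/1013 and 205 CPM in Cxcr4+/+) than in those without (24.1 CPM in Cxcr4+/1013 and 34.7 CPM in Cxcr4+/+). Among astroglia, barcodes with Gdf10, a Bergmann glia gene, had 227 CPM of Dcc in Cxcr4+/1013 and 231 CPM in Cxcr4+/+, and those without had 752 CPM in Cxcr4+/1013 and 765 CPM in Cxcr4+/+, a ratio of 0.983 on both sides. For Neo1 the ratio was 1.33 (1.25 to 1.41) with Gdf10 and 0.929 (0.796 to 1.08) without, for Unc5c 1.16 (1.11 to 1.22) with and 0.779 (0.685 to 0.886) without, and for Dscam 0.645 (0.455 to 0.902) with and 0.341 (0.208 to 0.541) without. The median depth was 14111.5 UMIs in Cxcr4+/1013 and 13037.5 UMIs in Cxcr4+/+ in barcodes with Gdf10, and 11559.5 UMIs in Cxcr4+/1013 and 5600 UMIs in Cxcr4+/+ in those without.

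**Figure D4:**
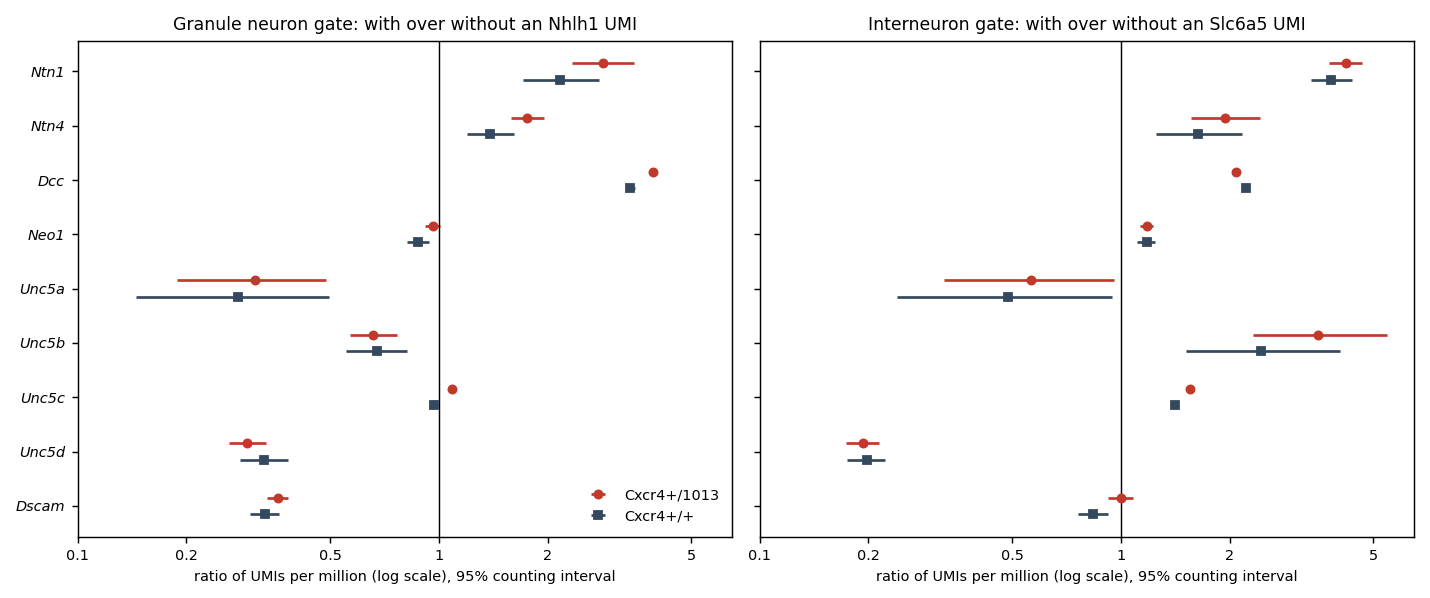
Level of each netrin gene in barcodes with the marker over those without it (log axis), for Nhlh1 in the granule neuron gate (left) and Slc6a5 in the interneuron gate (right), Cxcr4+/1013 as red circles and Cxcr4+/+ as dark squares with 95% counting intervals. Dcc lies right of 1 in both gates and Unc5d left of 1 in both, in both libraries.

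Several types held more than 1 netrin receptor in the same barcode. After thinning to 2000 UMIs, Dcc and Unc5c, whose proteins can form a repulsive complex, were both seen in 79.9% of Cxcr4+/1013 and 77.4% of Cxcr4+/+ interneurons. The single shares there were so high that the joint share could lie only between 77.7% and 83.6% in Cxcr4+/1013 and between 74.6% and 82.3% in Cxcr4+/+, so it says little beyond them. In granule cell progenitors they were together in 68.4% in Cxcr4+/1013 and 70.9% in Cxcr4+/+, in granule neurons 47.0% in Cxcr4+/1013 and 44.4% in Cxcr4+/+, and in glutamatergic nuclear or midbrain neurons 12.3% in Cxcr4+/1013 and 11.5% in Cxcr4+/+. These shares depend on depth: at 4000 UMIs the glutamatergic share was 20.1% in Cxcr4+/1013 and 19.2% in Cxcr4+/+. In the oligodendrocyte lineage, where the single shares leave more room, they were together in 35.1% in Cxcr4+/1013 and 31.1% in Cxcr4+/+, beside products of the single shares of 34.5% in Cxcr4+/1013 and 27.7% in Cxcr4+/+. Unc5c and Unc5d were together in 82.5% of Cxcr4+/1013 and 78.9% of Cxcr4+/+ unipolar brush cells. Apart from interneurons and the oligodendrocyte lineage, joint shares are given without products or limits, and no joint expression is read from them. Nearly all granule cell progenitors held Dcc at 2000 UMIs, so their joint share is close to that of Unc5c alone.

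The other genes of the pathway were counted beside the share of all gene and type pairs called, 3.63% higher and 2.25% lower. Over the 12 large types, 2 of 19 counted pairs of the other netrin genes were called higher and 0 lower, 4 higher and 1 lower of 94 for other ligands and partners, 4 higher and 1 lower of 231 for signalling behind the receptors, and 5 higher and 0 lower of 103 for receptor turnover and the dependence receptor pathway. Siah2, a ubiquitin ligase of the family that degrades DCC, accounted for 4 of those 5: granule cell progenitors (23.0 CPM in Cxcr4+/1013 and 12.6 CPM in Cxcr4+/+, 1.83, 1.42 to 2.36), both granule gates (1.63), interneurons (1.66; 2.31% of genes were called higher there) and glutamatergic neurons (1.62). Siah1a, of the same family, was at 1.64 in the oligodendrocyte lineage, where 5.31% of genes were called higher. Rgmb, a repulsive guidance molecule that binds neogenin, was at 38.5 CPM in Cxcr4+/1013 and 24.3 CPM in Cxcr4+/+ in granule cell progenitors (1.58, 1.31 to 1.91; 3.54% of genes were called higher there) and at 1.52 in GABAergic or glial progenitors (4.94% of genes called higher).

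Among the remaining calls, Ntng1, a membrane-anchored netrin-G, was at 353 CPM in Cxcr4+/1013 and 205 CPM in Cxcr4+/+ glutamatergic neurons (1.72, 1.57 to 1.90), the same cells as the Unc5d call, and Ntng2 was at 1.76 in astroglia (3.97% of genes called higher). Trim9, a DCC-binding ubiquitin ligase, was at 2.0 in GABAergic or glial progenitors and 1.53 in astroglia, Dscaml1, the Dscam paralogue, at 1.51 in cells with both granule gates, Mapk3 at 1.54 in granule cell progenitors and the adaptor Nck2 at 1.75 in the oligodendrocyte lineage. The synaptic ligand Cbln4, which can bind DCC, was at 0.597 in interneurons on 30 UMIs in Cxcr4+/1013 and 35 UMIs in Cxcr4+/+ (1.9% of genes called lower) and at 1.61 in midbrain GABAergic neurons, and the actin-binding Ablim1 was at 0.575 in glutamatergic neurons (3.78% called lower). Over the whole library Mcam (0.595) and Adora2b (0.442) were called lower. Mcam is among the leading genes of the mural gate, which held 18 Cxcr4+/1013 and 37 Cxcr4+/+ barcodes, and the part of cell numbers in its ratio was not tested.

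The genes most like each member over 24 levels (12 large types in both libraries, Pearson r of log2(CPM + 1), 14020 genes ranked) were Gpc3 for Ntn1 (0.905), Ddx5 for Ntn4 (0.934), Khdrbs1 for Dcc (0.946), Ppm1d for Neo1 (0.913), Gm32509 for Unc5a (0.938) and Dscam (0.958), Nfkbie for Unc5b (0.854), Gm15688 for Unc5c (0.856) and Blcap for Unc5d (0.943). The points share libraries and depth, so these are descriptions. Gm15688 lies antisense within Unc5c, and the next gene, Neurod2, was at 0.834. Among the members themselves, Unc5a and Dscam ran together (0.90), while Ntn1 and Unc5d ran opposite (-0.86). Of the 11 steps in each gene's order of types, the intervals of the neighbours were separate in 10 for Dcc in Cxcr4+/1013 and 11 in Cxcr4+/+, in 9 for Unc5c in each library, in 1 for Unc5b in each library, and for Unc5a in 1 in Cxcr4+/1013 and 0 in Cxcr4+/+.

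The size of the ratio moved with the length of genes in general. In granule neurons the median ratio was 0.925 for genes under 10 kb and 1.114 for genes of 500 kb or more, and in Purkinje cells it was 0.957 for the longest class. Dcc (1097 kb, 1.21 in granule neurons), Dscam (580 kb, 1.05), Unc5d (573 kb, 1.12) and Unc5c (370 kb, 1.21) are long genes, while Neo1 (162 kb, 1.29) and Ntn4 (107 kb, 1.39) are shorter and had larger ratios. The other shorter members had ratios of 0.938 for Unc5a (56.6 kb), 1.1 for Unc5b (69.0 kb) and 1.15 for Ntn1 (191 kb). The part of gene length in the ratios was not tested.

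**Figure D5:**
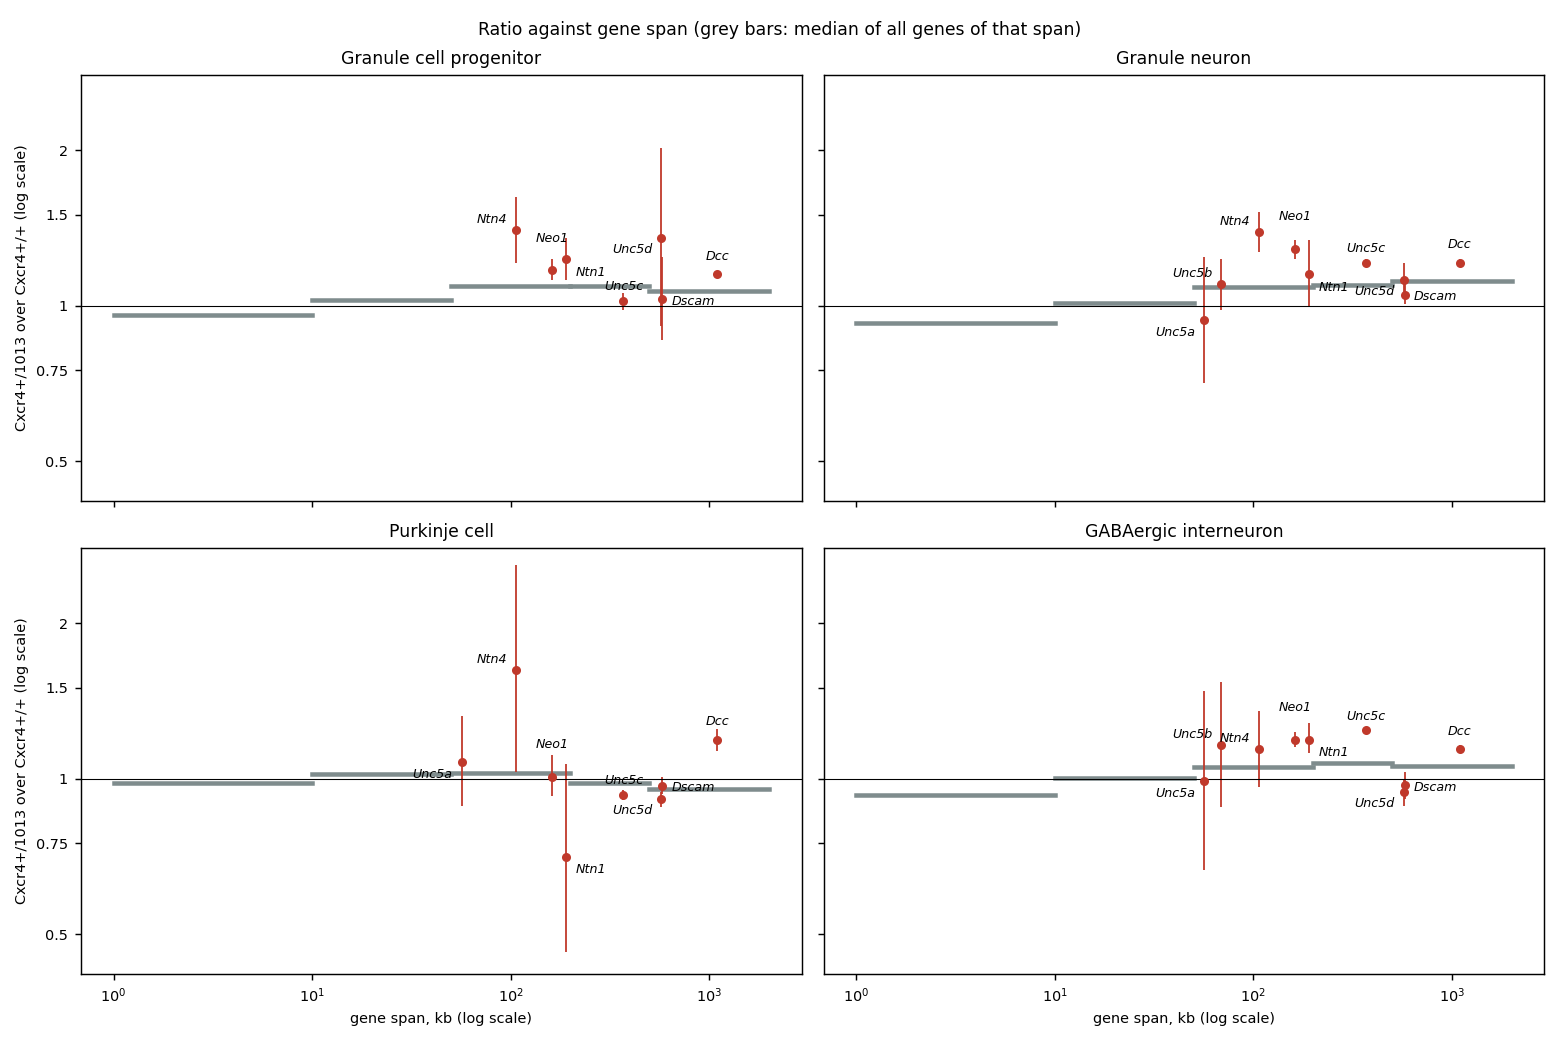
Ratio of Cxcr4+/1013 over Cxcr4+/+ against gene span in kb (both axes log) in 4 large types; red points are netrin genes with 95% counting intervals, and grey bars the median ratio of all genes of that span. In granule neurons the grey bars run between 0.925 and 1.114, and Ntn4 (1.39) and Neo1 (1.29) lie above them.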

How the data were processed

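Droplet 3′ libraries (10x) were deposited as raw UMI counts per gene and barcode; per the submitters' processing notes, bcl2fastq 2.20.0.4222, Cell Ranger 7.2 and the build mm10 were used. No source used here says whether intronic and antisense reads were counted, and the deposited barcodes had already been filtered to at least 500 UMIs. Kept barcodes had at least 500 genes and at most 10% mitochondrial UMIs (Python 3.11.15, scanpy 1.11.5, scipy 1.17.1). They were assigned to a type when the number of detected markers of 1 list reached its minimum; those passing no gate (1212 in Cxcr4+/1013 and 1972 in Cxcr4+/+, median 3568 and 2340 UMIs) or several conflicting gates (515 and 622) were left out of types. Doublets were left in, and barcodes with the highest Scrublet scores (0.8% per 1000 barcodes) were removed in an alternative. UMIs were summed per library and type and given as CPM with exact Poisson 95% intervals, ratios with exact conditional binomial intervals and shares with Clopper-Pearson intervals, all for counting error only. The interval and ratio step was tested on simulated data. Alternatives were edgeR 4.0.16 TMM scaling, stricter filters and gates, Leiden clusters, female or male barcodes, deeper thinning, removal of the barcode with most UMIs and, added after seeing the data, Cxcr4+/+ type proportions and at least 5000 UMIs. Named genes were all 9 members, 44 other pathway genes where past 1.5-fold, and the genes most like each member among those with at least 500 UMIs. The members and lists were chosen with earlier results of these data known.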

Additional observations from a re-analysis of the deposited data

Results flagged for a closer look

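Of 75 pairs of a netrin gene and a type counted in both sexes, the ratio of Cxcr4+/1013 over Cxcr4+/+ lay on opposite sides of 1 in female and male barcodes in 35. In 3 of them both counting intervals also lay off 1, and these are given here; the difference was not tested. Dcc in Purkinje cells was at 0.817 among female and 1.22 among male barcodes. Unc5d in GABAergic interneurons was at 1.23 among female and 0.718 among male barcodes. Dcc in midbrain GABAergic neurons was at 1.06 among female and 0.728 among male barcodes. That male value rests on 13 Cxcr4+/1013 and 51 Cxcr4+/+ barcodes. The sex of a barcode was read from its own transcripts, no source used here gives the number of animals behind each, and barcodes of 1 library are not replicates.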

How the results depend on the processing

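No paired analysis was possible because each genotype has 1 library, and for the same reason no library could be left out. For the whole-library ratios (Cxcr4+/1013 over Cxcr4+/+), barcodes with at least 1000 genes and at most 5% mitochondrial UMIs gave Ntn1 1.23, Ntn4 1.5, Dcc 1.28, Neo1 1.24 and Unc5d 1.10. Female barcodes gave Ntn1 1.14, Ntn4 1.43, Dcc 1.32, Neo1 1.21, Unc5b 0.958 (the other direction), Unc5c 1.30, Unc5d 1.13 and Dscam 1.05, and male barcodes Ntn1 1.41, Ntn4 1.74, Dcc 1.31, Neo1 1.31, Unc5b 1.37 and Unc5c 1.40. Without the highest Scrublet scores Neo1 was 1.28, Unc5c 1.38 and Unc5d 1.03. In Cxcr4+/+ type proportions Ntn1 was 1.18, Ntn4 1.34, Dcc 1.15, Neo1 1.2, Unc5c 1.17 and Unc5d 1.02. The other 35 whole-library values moved by less than the counting interval. The values in Cxcr4+/+ proportions cover the large types only, but are set here beside ratios over all kept barcodes. Unc5b is counted among the 35 for this reason, although it was 1.10 in place of 1.28 for the same cells pooled. Within types, 74 of 732 alternative ratios lay on the other side of 1; in 53 of them the interval as reported included 1, and the other 21 follow. By sex, female barcodes with both granule gates had Ntn4 0.980 and Unc5c 0.987, female Purkinje cells Dcc 0.817, female interneurons Ntn1 0.953 and Unc5d 1.23, and female midbrain GABAergic neurons Unc5c 1.01; male barcodes had Unc5d 0.534 with both granule gates, 1.11 in GABAergic or glial progenitors and 0.740 in astroglia, Neo1 0.687 in glutamatergic neurons and Dcc 0.941 in the oligodendrocyte lineage. A stricter gate gave Unc5d 0.979 in granule neurons and 1.06 in midbrain GABAergic neurons, and Dcc 0.885 and Unc5c 0.959 in unipolar brush cells, where Leiden clusters gave Dcc 0.877, Neo1 0.880 and Unc5c 0.960. Removing high Scrublet scores gave Dcc 0.952 in Purkinje cells, Unc5d 1.13 in GABAergic or glial progenitors and Unc5c 1.28 in midbrain GABAergic neurons. The causes were not tested. Of the 732, 18 moved by over 1.5 times. Of the 48 shares of barcodes with both Dcc and Unc5c at 4000 UMIs or without thinning, 45 lay outside the interval at 2000 UMIs. At 200 UMIs or more, the genes past 1.5-fold numbered 160 in granule cell progenitors (516 at 50 UMIs), 176 in granule neurons (611), 169 in Purkinje cells (570) and 171 in interneurons (590), where fewer genes are tested and sparse counts drop out. At 50 UMIs or more, the higher share of the calls was 77.7% in granule cell progenitors and 62.7% in granule neurons. Under TMM these shares were 66.7% and 50.9%, and at 200 UMIs or more 90.0% and 80.7%. In Purkinje cells the higher share was 55.6%, with 74.6% at 200 UMIs or more and 43.1% without high Scrublet scores. Depth limits Unc5a and Unc5b, which could be counted in 4 types each.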
